A study of Mus musculus with 6 samples.

Results

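Bnip3, the mitophagy and oxygen-sensing genes named beside it, and several targets of the hypoxia response were described across leukaemic mouse B cells with and without gamma-catenin. The list holds 10 genes, namely Bnip3, Bnip3l, Fundc1, Pink1, Hif1a, Egln1, Egln3, Ddit4, Vegfa and Ankrd37, of 19938 genes with a probe set named by exactly 1 gene symbol. They are measured by 12 of 21789 such probe sets (a probe set is the group of array probes summarised to 1 value), since Bnip3 and Bnip3l have 2 each, and the brighter of the pair, by its mean over the 6 arrays, is taken as the main one. The list was selected on measured values: it was drawn up with the KO and WT differences of these same arrays known, and Bnip3 was chosen by its lower signal without gamma-catenin. Differences between the genotypes are therefore given for the 10 genes as a description, with no test.

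Donor cells were fetal liver of embryos that were Jup-/- (KO) or Jup+/+ (WT) on the C57BL/6 background, and they had rebuilt the blood of CD45.1+ C57BL/6 mice for at least 8 weeks. Marrow of these chimeras was infected with a retrovirus for BCR-ABL1 and green fluorescent protein and given to irradiated CD45.1+ mice, and fluorescent B220+ BP-1+ cells of donor type (CD45.2+) were sorted at day 21. Both groups thus carry the BCR-ABL1 virus, and the loss of Jup, which encodes gamma-catenin, was present from the embryo in all donor blood cells. Each genotype had 3 biological replicates by its labels, with 1 array per sample. The sources used here do not say whether a sample is 1 mouse or a pool, so the errors cover the spread between these samples. All levels are RMA signals on the log2 scale, where a difference of 1 is 2-fold, and all differences are KO minus WT.

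Jup itself (probe set 10391103) measured 7.04, 7.06 and 7.27 in KO replicates 1, 2 and 3 and 8.04, 7.62 and 8.51 in the WT replicates. The difference was -0.93 (moderated SE 0.20, limma adjusted p = 0.171), so the deleted gene was itself not past the limma threshold of 0.05. Array medians ran from 7.53 to 7.61. The 15 pre-B cell markers measured had a mean level of 12.04 to 12.15 in the KO arrays and at most 12.06 in the WT arrays, with 0 of them below the median probe set. Of the macrophage markers 9 of 10 lay below that median, as did 9 of 9 T and NK markers and 6 of 6 erythroid markers. Of the stromal and endothelial markers 6 of 10 did, and 1 was past the limma threshold as lower in KO. Erythroid markers had a mean level of 6.79 to 6.92 in KO and 6.60 to 6.78 in WT. Of these 6 markers 1 was past the limma threshold as higher in KO. Over all probe sets 0.0688% were called lower and 0.0505% higher. Neutrophil markers differed between the genotypes: all 15 had a higher KO mean. Their mean level was 8.75 to 8.84 in KO and 7.72 to 8.29 in WT. In limma 3 of them (Mpo, Ctsg and Elane) were past the threshold, and 14 were higher at an unadjusted p under 0.05. The KO arrays all lay above the WT arrays in 11 of the 15. Over all probe sets these shares were 0.0505%, 4.48% and 5.94%. In bulk samples, fewer cells of a type and less RNA per cell cannot be told apart. The part of the neutrophil, erythroid and stromal transcripts in the values below was not tested. WT replicate 2 was the 1 array with a low Xist signal (6.195 against 13.03 to 13.38) and with high Y-linked transcripts, so the sexes were uneven.

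Mitophagy is the removal of mitochondria by autophagy. BNIP3 and its relative BNIP3L, also called NIX, sit in the outer mitochondrial membrane and bind the LC3-family proteins of the autophagosome membrane directly, as does FUNDC1, whereas the kinase PINK1 marks damaged mitochondria for the ubiquitin ligase parkin. The hypoxia-inducible factor (HIF), of which Hif1a encodes the oxygen-regulated subunit, is hydroxylated by the enzymes of Egln1 and Egln3 and then destroyed when oxygen is present. When oxygen is scarce it binds short DNA elements and induces, among others, Bnip3, Egln3, Ddit4, Vegfa and Ankrd37. BNIP3L is best known in blood for clearing mitochondria from maturing red cells.

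The core of the element that HIF binds is ACGTG or GCGTG on either strand. RefSeq promoter sequences (assembly GRCm38.p6) were found for 9 of the 10 genes, with 2 start sites for Vegfa. The 250 bases before the start of Bnip3, at chr7:138909507-138909756 on the minus strand, are shown because this gene differs most between the genotypes. Capitals mark each match to either core.

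Bnip3: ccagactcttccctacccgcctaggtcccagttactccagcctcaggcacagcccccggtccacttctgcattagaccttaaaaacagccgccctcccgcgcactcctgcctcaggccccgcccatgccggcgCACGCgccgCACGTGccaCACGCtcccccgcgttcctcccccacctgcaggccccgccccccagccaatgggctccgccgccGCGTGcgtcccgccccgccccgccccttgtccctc

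This window holds 5 matches, of which 2 lie in the palindrome CACGTG, also known as the E-box of the MYC and USF families. Over all 32851 promoter windows of the same length 38.6% held at least 1 match to either core, 1.0% held 5 or more and 6.0% held CACGTG. Among the other members, Ankrd37 had 4 matches, Hif1a 3, Egln1 and Ddit4 2 each, Pink1 and Egln3 1 each, and Fundc1 had 0. At the first Vegfa start site there were 0 matches and at the second 2. The matches to ACGTG on the gene's own strand follow with 12 bases on either side, as far as the window goes, for the 2 further genes whose KO arrays all lay below the WT arrays (Egln1 and Ddit4) and for 2 HIF targets whose groups overlapped (Egln3 and Ankrd37). For Ankrd37 the match farther from the start is shown.

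Egln1, chr8:124949306-124949334, minus strand: gggccgtggtgtACGTGcagcgcgcgcgg
Ddit4, chr10:59951941-59951969, minus strand: agaacgttgcgaACGTGcgcccggtgcct
Egln3, chr12:54204087-54204115, minus strand: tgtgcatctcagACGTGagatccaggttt
Ankrd37, chr8:46000075-46000100, minus strand: cccagcagtACGTGcctagctcggct

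Genes with the core in the window were found both among those with separated groups and among those with overlapping groups. The genes shown were picked among those with a match, and of the members with a promoter Fundc1 alone had no match at any start site. Whether the core goes with a difference was not tested. A match is a run of letters, and no binding was measured here.

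Bnip3 was the 1 gene of the 10 with a large difference between the genotypes. Its main probe set (10414269) measured 10.45, 10.28 and 10.14 in KO replicates 1, 2 and 3 and 11.22, 11.21 and 10.98 in the WT replicates. Every KO array lay below every WT array, with a gap of 0.53 between the nearest ones. Means were 10.29 ± 0.15 (SD, n = 3) without and 11.14 ± 0.14 (SD, n = 3) with gamma-catenin, a difference of -0.85 (moderated SE 0.11), or 1.80-fold lower in KO. The other probe set (10568785) measured 9.65, 9.61 and 9.44 in KO and 10.31, 10.46 and 10.34 in WT, with a gap of 0.65 and a difference of -0.80 (SE 0.09). KO replicate 3 was the lowest array on both probe sets. Both probe sets are listed with the same transcripts, so they are not independent genes. The sources used here do not say where their probes lie, and whether either takes up signal of a gene copy is not known here.

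In the fit over all probe sets both Bnip3 probe sets were past the threshold (limma adjusted p under 0.05), the value by which the gene came onto the list. They are 2 of the 15 probe sets called lower in KO, and 0.119% of all probe sets were called in either direction (0.0688% lower and 0.0505% higher). Leaving out an array moved the difference of the main probe set between -0.93 (without KO replicate 1) and -0.77 (without KO replicate 3). The call held without KO replicate 1 and was lost on both probe sets without any 1 of the other 5 arrays, where the differences of the main probe set were -0.84 and -0.77 without KO replicates 2 and 3, and -0.81, -0.81 and -0.92 without WT replicates 1, 2 and 3. The fits that lost the call also had fewer arrays. Since every KO array lay below every WT array, leaving out 1 array could not turn the sign, so the kept direction is no support.

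**Figure D1:**
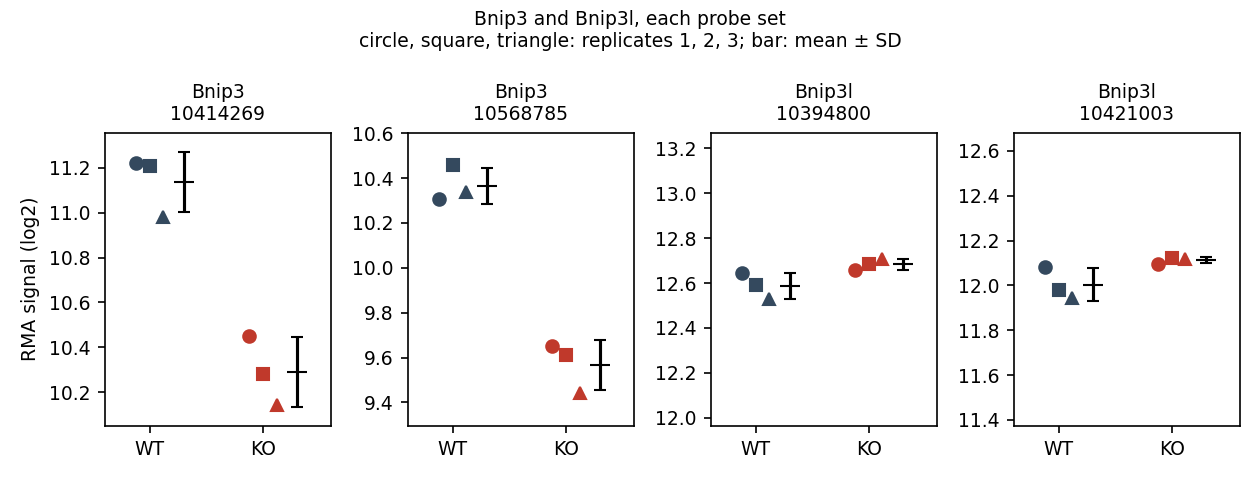
RMA signal (log2, vertical axes of equal span) of each probe set of Bnip3 and Bnip3l in the 3 WT and 3 KO arrays, with the mean and SD beside the points. The KO arrays lie 0.53 or more below the WT arrays on both Bnip3 probe sets, while the Bnip3l groups are within 0.11 of each other in their means.

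Bnip3l, the closest relative, did not share this pattern. Its main probe set (10394800) measured 12.66, 12.68 and 12.71 in KO and 12.64, 12.59 and 12.53 in WT. The KO arrays all lay above the WT arrays, by a gap of only 0.01, and the difference was 0.09 (SE 0.07), with a 95% interval from -0.07 to 0.26. The other probe set (10421003) gave 12.10, 12.12 and 12.12 in KO against 12.08, 11.98 and 11.94 in WT, a difference of 0.11 (SE 0.07). RefSeq also lists a pseudogene, Bnip3l-ps, and whether either probe set takes up its signal is not known here.

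Of the other mitophagy members, Fundc1 measured 11.54, 11.72 and 11.35 in KO and 11.65, 11.45 and 11.30 in WT. The groups overlapped, and the spread within each (SD 0.19 in KO and 0.17 in WT) was larger than the difference of 0.07 (SE 0.12, 95% interval -0.21 to 0.35). Fundc1 lies on the X chromosome, and without WT replicate 2, the array with low Xist, the difference was 0.06. Pink1 measured 9.27, 9.54 and 9.46 in KO and 9.44, 9.39 and 9.67 in WT, so its groups overlapped too. The difference was -0.08 (SE 0.11, 95% interval -0.32 to 0.17). The sign turned for Fundc1 without KO replicate 2 (-0.02) or WT replicate 3 (-0.01), and for Pink1 without WT replicate 3 (0.01).

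Among the oxygen-sensing genes, Hif1a was nearly equal in all arrays, at 11.48, 11.45 and 11.44 in KO and 11.49, 11.42 and 11.55 in WT. The difference was -0.03 (SE 0.07, 95% interval -0.20 to 0.13). Since HIF is regulated mainly through the stability of the protein, the transcript level is not a measure of its activity. Egln1, the main oxygen sensor among the hydroxylases, measured 9.73, 9.72 and 9.76 in KO and 9.94, 9.81 and 9.83 in WT. All KO arrays were below the WT arrays by a gap of 0.05, and the difference was -0.13 (SE 0.07, 95% interval -0.29 to 0.04).

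Egln3, a hydroxylase gene that is itself induced by HIF, measured 7.06, 7.09 and 6.62 in KO and 7.503, 6.70 and 6.54 in WT. WT replicate 1 was the highest array and WT replicate 3 the lowest, so the WT group spanned the KO group. The means were 6.92 ± 0.26 (SD, n = 3) in KO and 6.92 ± 0.51 (SD, n = 3) in WT, a difference of 0.01 (SE 0.24). Its interval was wide, from -0.55 to 0.56, and leaving out WT replicate 1 gave 0.30 and WT replicate 3 -0.18. It was the dimmest member, at the 38.7th percentile of all probe set means, where RMA compresses changes.

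Ddit4 encodes REDD1, an inhibitor of the growth kinase complex mTORC1 that rises under hypoxia and other stress. It measured 9.46, 9.40 and 9.37 in KO and 9.998, 9.48 and 9.48 in WT. The KO arrays were all lower, but by a gap of only 0.01, and WT replicate 1 stood apart from the other 5 arrays. The difference was -0.24 (SE 0.14, 95% interval -0.56 to 0.08) and shrank to -0.07 without WT replicate 1.

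The remaining HIF targets did not separate the genotypes. Vegfa, the gene of the main angiogenic growth factor, measured 11.14, 11.19 and 11.35 in KO and 11.35, 11.13 and 10.96 in WT, a difference of 0.08 (SE 0.11, 95% interval -0.18 to 0.34). Ankrd37, an ankyrin-repeat gene known as a direct HIF target, measured 7.47, 7.59 and 7.65 in KO and 7.55, 7.49 and 7.56 in WT. Its difference was 0.04 (SE 0.08, 95% interval -0.14 to 0.21). In both genes the groups overlapped, and the sign turned without WT replicate 3 for Vegfa (-0.01) and without KO replicate 3 for Ankrd37 (-0.003).

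**Figure D2:**
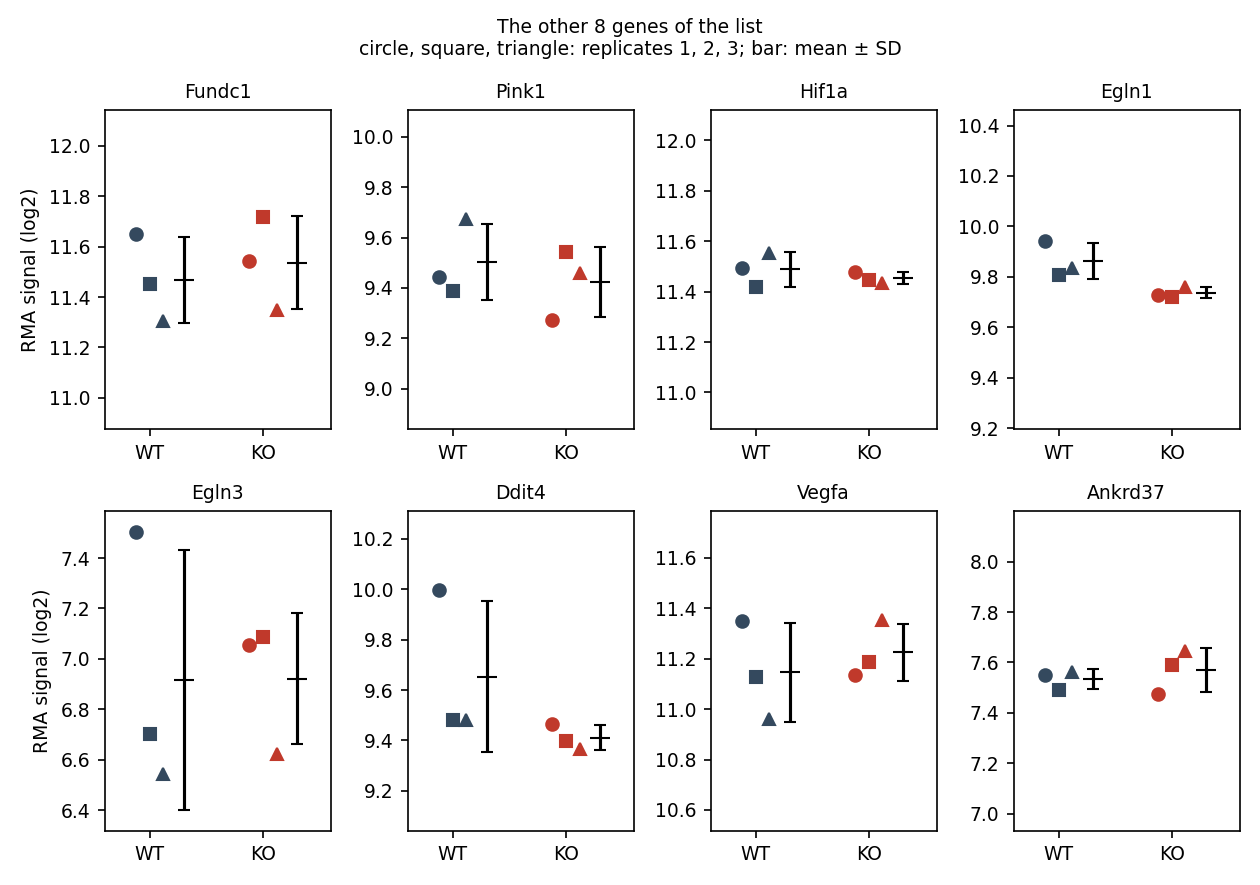
RMA signal (log2, vertical axes of equal span) of the other 8 genes in the 3 WT and 3 KO arrays, with the mean and SD beside the points. WT replicate 1 is the highest array for Egln1, Egln3 and Ddit4, and the groups are separated for Egln1 and Ddit4 alone, by 0.05 and 0.01.

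Over the 10 main probe sets, 5 had a lower and 5 a higher KO mean, where 55.8% of all probe sets had a lower one. The median difference was -0.01 against -0.02 over all probe sets tested. Without Bnip3 the median was 0.01. The groups were separated in 4 of the 10, with KO lower in 3 (Bnip3, Egln1 and Ddit4) and higher in 1 (Bnip3l). Over all probe sets the groups did not overlap in 14.0%, with KO lower in 8.08% and higher in 5.94%. Since the genes were chosen with these arrays in view, nothing is read from that count. Apart from Bnip3, 0 of the members were past the limma threshold, against 0.119% of all probe sets. WT replicate 1 held the highest value of the 6 arrays in 4 of the 10 genes (Bnip3, Egln1, Egln3 and Ddit4), and in 21.9% of all probe sets.

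**Figure D3:**
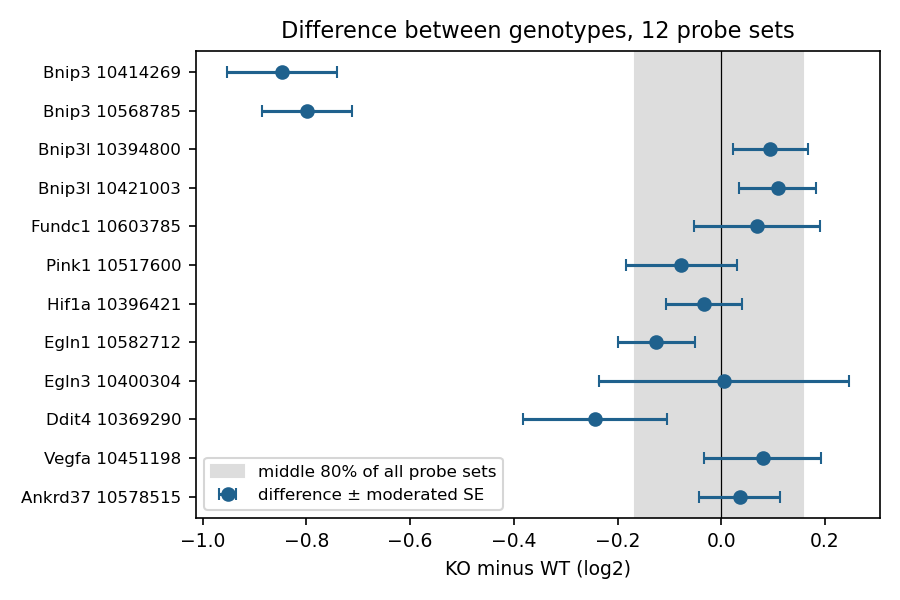
Difference between the genotypes (KO minus WT, log2) with its moderated SE for each of the 12 probe sets, over a band that holds the middle 80% of all probe sets tested. Both Bnip3 probe sets lie far to the left of the band, Ddit4 lies outside it too, at -0.24, and the others lie inside.

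The wider pathway was read from 6 lists of genes that leave out the 10 members, each gene by its main probe set. The list of HIF machinery covers partners and regulators of the factor, of which 19 were measured. In limma 0 were called, against 0.119% of all probe sets, a share too small to expect a call in any of these lists. Before adjustment (p under 0.05) 1 was higher and 0 lower, where 4.48% of all probe sets were higher and 4.73% lower. The median difference was 0.04. The gene with the highest moderated t was Epas1, which encodes the HIF-2 alpha subunit, at 7.25, 7.34 and 7.30 in KO and 7.02, 6.94 and 7.18 in WT (difference 0.25, SE 0.09, limma adjusted p = 0.413). Siah1a, a ubiquitin ligase that acts on the hydroxylases, gave 0.17 (SE 0.09). The lowest were Cul2, the scaffold of the VHL ubiquitin ligase (-0.17, SE 0.09), and Hif3a (-0.20, SE 0.13).

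HIF target genes other than the members went both ways. Of 57 measured, 38 had a lower and 19 a higher KO mean, a median of -0.06, while 55.8% of all probe sets had a lower KO mean. In limma 0 were called in either direction. At an unadjusted p under 0.05 8 were lower and 4 higher, against 4.73% and 4.48% of all probe sets. The KO arrays lay below the WT arrays in 12 and above in 5 of the 57, where over all probe sets they lay below in 8.08% and above in 5.94%. The lowest moderated t were those of P4ha1, a collagen prolyl hydroxylase (-0.50, SE 0.16, limma adjusted p = 0.372), and Mif, a cytokine gene (-0.25, SE 0.08, limma adjusted p = 0.404).

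The largest difference on the list had the opposite sign to Bnip3. Ndrg1, a stress-responsive gene strongly induced by hypoxia in many cell types, measured 9.12, 11.06 and 10.86 in KO and 8.72, 8.62 and 8.999 in WT. All KO arrays were above the WT arrays, but KO replicate 1 by only 0.12, while the other KO arrays were far higher. The difference was 1.57 (SE 0.44, limma adjusted p = 0.312). Without KO replicate 1 it was 2.18, and Ndrg1 then was past the limma threshold (adjusted p = 0.00492), the 1 gene of the list called in that fit. The other gene with a high t was Anxa2, which encodes annexin A2 (0.36, SE 0.09, limma adjusted p = 0.263).

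Of 38 further mitophagy genes measured, the KO mean was lower in 23 and higher in 15, and the median was -0.03. Over all probe sets 55.8% had a lower KO mean. The KO arrays lay below the WT arrays in 9 of the 38 and above in 2, against 8.08% and 5.94% of all probe sets. In limma 0 were called, with 4 lower and 3 higher at an unadjusted p under 0.05 (4.73% and 4.48% of all probe sets). Tomm20, a receptor of the mitochondrial import complex, measured 11.07, 10.80 and 11.04 in KO and 11.35, 11.30 and 11.38 in WT (difference -0.37, SE 0.09, limma adjusted p = 0.243). Nipsnap1, a mitochondrial protein that can recruit autophagy receptors, gave -0.30 (SE 0.08, limma adjusted p = 0.293). In the other direction lay Fbxl4 at 0.30 (SE 0.08, limma adjusted p = 0.308), whose product restrains BNIP3 and BNIP3L by promoting their degradation, and Calcoco1, an autophagy receptor, at 0.48 (SE 0.15, limma adjusted p = 0.371). The KO arrays of Fbxl4 (7.55, 7.73 and 7.68) were all above the WT arrays (7.43, 7.28 and 7.37).

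The autophagy core list, 34 genes of autophagosome formation, had a median of 0.05, with 20 higher and 14 lower KO means. Over all probe sets 55.8% had a lower KO mean. The KO arrays lay above the WT arrays in 3 of the 34 and below in 1, against 5.94% and 8.08% of all probe sets. In limma 0 were called, with 4 higher and 1 lower at an unadjusted p under 0.05. Over all probe sets 4.48% were higher and 4.73% lower at that p. Rb1cc1, the scaffold FIP200 of the initiating kinase complex, had the highest t (0.38, SE 0.10, limma adjusted p = 0.272), followed by Wipi1 (0.42, SE 0.13, limma adjusted p = 0.379). At the other end stood Pik3r4, a subunit of the lipid kinase complex of autophagy (-0.24, SE 0.09), and Vmp1 (-0.18, SE 0.11). With array weights Rb1cc1 was called (limma adjusted p = 0.0472).

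Ddit4 acts on mTORC1 through the TSC complex and the small GTPase RHEB. Of 21 genes of that axis, the KO mean was higher in 10 and lower in 11, and the median was -0.0003. In limma 0 were called, with 0 higher and 1 lower at an unadjusted p under 0.05 (4.48% and 4.73% of all probe sets). That 1 was Tbc1d7, the third subunit of the TSC complex, which measured 8.98, 8.74 and 8.69 in KO and 9.34, 9.17 and 9.39 in WT (difference -0.50, SE 0.10, limma adjusted p = 0.166). Rheb gave -0.17 (SE 0.08), and the highest were Sesn1 at 0.10 (SE 0.09) and Tsc1 at 0.09 (SE 0.08).

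The VEGF family other than Vegfa was represented by 9 ligand and receptor genes, 7 of them below the median probe set, where changes are compressed. The median was -0.08. In limma 0 were called, with 0 higher and 1 lower at an unadjusted p under 0.05 (4.48% and 4.73% of all probe sets). The 1 was Pgf, placental growth factor, a ligand of VEGF receptor FLT1, at 9.61, 9.52 and 9.90 in KO and 10.69, 9.84 and 10.70 in WT. The groups overlapped through WT replicate 2, and the difference was -0.73 (SE 0.22, limma adjusted p = 0.358). Nrp2 gave -0.24 (SE 0.13), Vegfc 0.07 (SE 0.09) and Nrp1 0.01 (SE 0.08).

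**Figure D4:**
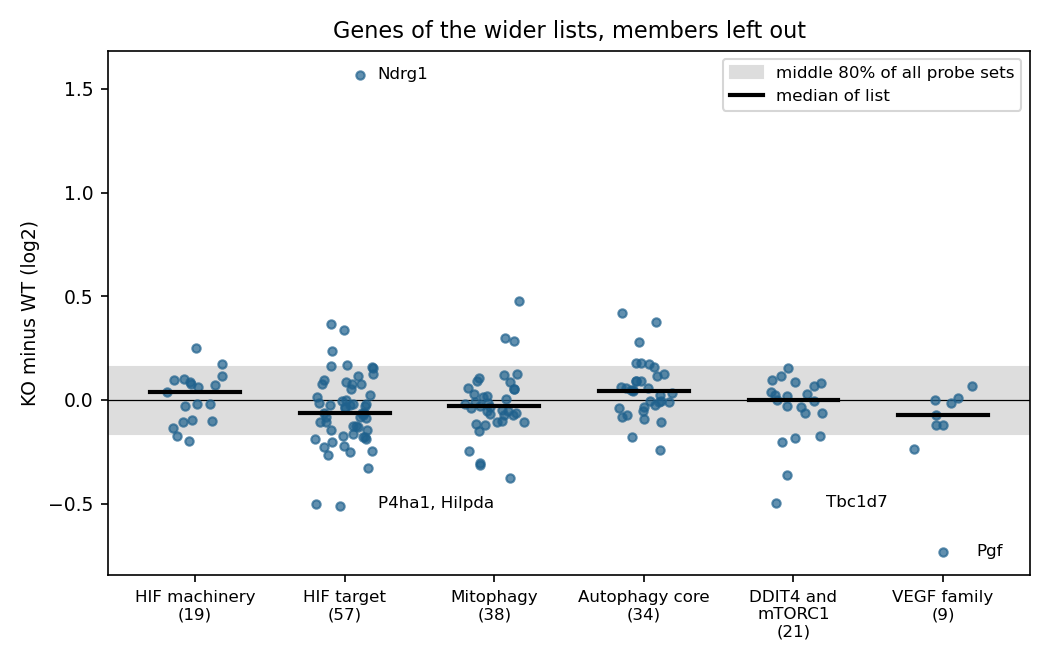
Difference between the genotypes (KO minus WT, log2) of each gene of the 6 wider lists, with the list's median as a bar and the middle 80% of all probe sets as a band. The medians lie between -0.08 and 0.05, and Ndrg1 (1.57) and Pgf (-0.73) stand farthest from 0.

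The genes whose values ran most like those of Bnip3 were taken by Pearson's r with its main probe set over the 6 arrays. They were Sult1d1 (r = 0.995), Rps2 (0.993), Coq4 (0.992), Hmgcll1 (0.992) and Atp5md (0.992). All 5 shared with Bnip3 the step between WT and KO, from -0.08 for Rps2 to -1.28 for Hmgcll1, and of these Hmgcll1 alone was past the limma threshold (adjusted p = 0.00621). Over 6 arrays that fall into separated groups, r describes mostly that step, and 100 of 19158 named probe sets had an r above 0.95. Among the other members r ranged from -0.72 for Bnip3l to 0.80 for Egln1, with Ddit4 at 0.65 and Hif1a at 0.30. Rps2 has many near-identical copies in the genome, so its signal may be shared. Sult1d1 measured only 4.04 to 4.30 over the 6 arrays, far below the median probe set level of 7.58, where changes are compressed.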

How the data were processed

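RNA of 3 KO and 3 WT samples was hybridised to 1-colour Affymetrix arrays, 100 ng of total RNA each, per the labels' protocols. Per the submitters' processing notes the authors used RMA and Affymetrix Expression Console 1.1, and by their range the values they deposited are log2 signals. RMA makes arrays comparable and compresses changes of dim transcripts. Its options and the genome build are not given in the sources used here. Of 35556 rows, 21789 have exactly 1 symbol in the platform annotation, 1621 several and 12146 none, and the first were tested. By gene ID, 91 had no RefSeq match and 0 symbols differed.

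The genotypes were compared by limma 3.58.1 (R 4.3.3; lmFit, eBayes, constant prior, no covariate, no filter), with Benjamini-Hochberg adjustment over all 21789 probe sets and a threshold of 0.05. Intervals are 95% intervals from the moderated SE. The number of arrays limits the precision. On simulated data with 200 changed probe sets of 21789 the fit recovered 94.0% of changes of log2 size 1 and 36.5% of size 0.5.

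The members and lists were chosen with earlier results of these data known. Named are Jup, all members, any gene past the threshold and the 2 highest and 2 lowest moderated t of each wider list, and the 5 probe sets most correlated with Bnip3, leaving out predicted genes and olfactory and vomeronasal receptors. Other genes are said to be named after their values were seen. Alternatives were leaving out each array, the replicate number as a block, dropping probe sets whose mean is under the 40th percentile, testing all rows, 1 probe set or the mean per gene, another prior, array weights, quantile normalization, median centring and an adjusted p of 0.1.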

Additional observations from a re-analysis of the deposited data

How the results depend on the processing

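The differences of the 10 genes moved by less than the SD between replicates under every alternative run. With so few arrays, leaving out 1 cannot move a difference by more than that. The filter, the test of all rows, the prior and the block leave a difference unchanged. This limit is therefore no check on the differences. Their signs turned only for Fundc1, Pink1, Egln3, Vegfa and Ankrd37, each when an array was left out. The count of all probe sets called higher in KO, 11, was 17 with a trended and robust prior, 93 with array weights, 7 after a further quantile normalization, 17 with arrays centred on their median, 25 at an adjusted p under 0.1, and between 1 and 41 without 1 array. The count called lower, 15, was 59 over all rows of the table, 23 with the other prior, 57 with array weights, 33 at an adjusted p under 0.1, and between 3 and 41 without 1 array. Among the wider lists the 0 HIF target genes called higher became 1 without KO replicate 1 (0 to 1 over the arrays left out), and the 0 autophagy core genes called higher became 1 with array weights. The median of the VEGF family was -0.43 after the filter on dim probe sets, which leaves few of its genes. The cause of the other changes was not tested.

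Samples of the same replicate number did not deviate together in every pair (correlations of deviations 0.10, -0.004 and 0.27), and not every sample correlated best with its own number. With the replicate number as a block 8 probe sets were called higher and 11 lower, and of Bnip3 the main probe set stayed past the threshold (difference -0.85) and the other did not. The main Bnip3 probe set also missed it over all rows of the table.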

Other observations

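HIF target genes were also grouped by what they do, after their values were seen, so the groups are a description. The groups do not hold all 57 genes of the list. Ndrg1 (1.57) and Anxa2 (0.36), which had the highest moderated t, are in none of them. Over all 57 genes the KO arrays lay below the WT arrays in 12 and above in 5. Glycolysis and glucose transport genes had a lower KO mean in 13 of 15, with a median difference of -0.13, and the KO arrays lay below all WT arrays in 8, against 8.08% of all probe sets. Aldoa, the muscle-type aldolase gene, was lowest at -0.33 and Pfkp highest at 0.08. Collagen and matrix enzyme genes were lower in 5 of 5, from -0.50 for P4ha1 to -0.06 for P4ha2. Over all probe sets 55.8% had a lower KO mean. The KO arrays lay below all WT arrays in 1 of these 5, and 1 was lower at an unadjusted p under 0.05. Of the 4 iron and haem genes 2 were lower and 2 higher. Lipid droplet and glycogen genes were split, with Hilpda, an inhibitor of lipid droplet lipolysis, at -0.51 and Gys1, the glycogen synthase gene, at 0.08. The histone demethylase genes Kdm3a, Kdm4b and Kdm4c were grouped with Jmjd6. Of these 4 genes 2 were lower and 2 higher, from -0.07 for Jmjd6 to 0.16 for Kdm3a, with Kdm4c at -0.004. Cxcr4, the receptor of the marrow chemokine CXCL12, was at 0.34 and Mif at -0.25. In limma 0 of the grouped genes were past the threshold. At an unadjusted p under 0.05 3 of the 15 glycolysis genes were lower and 0 higher, against 4.73% and 4.48% of all probe sets.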
